A study of Homo sapiens with 25 samples.

Results

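HEC-1A is an epithelial cell line from a human endometrial adenocarcinoma. RNA-seq of this line compared 3 libraries of cells given 20 µM THC (tetrahydrocannabinol, the main psychoactive compound of cannabis) for 24 h with 3 libraries of untreated cells. Every gene with a mean of at least 1 TPM (the share of all transcripts, scaled to the same total in every library) over these 6 libraries was described, which gave 13463 of 60179 gene identifiers. Both groups carry the genotype label WT. The untreated cells carry no label for a vehicle or a time, so effects of the solvent and of time in culture cannot be told apart from those of THC. HEC-1A is a single line. Its libraries are labelled as biological replicates but not tied to cultures, so a p-value here weighs a difference only against library-to-library spread, part of which may be technical. Lipid metabolism genes and stress response genes stayed in the fit and in every total, but were not ranked among the named genes.

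THC is a lipophilic ligand of the cannabinoid receptors, which signal through G proteins to kinase cascades. In such cascades, immediate early genes encode transcription factors that are transcribed within minutes of a stimulus and are usually shut off soon after. The level of an mRNA reflects both its transcription and its decay, and TPM gives it only as a share of all RNA measured, so a rise of abundant genes lowers the values of all others.

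Changes are given as log2 differences of TPM + 1, with 24 h THC minus untreated, from a limma fit over all 13463 genes. They understate the change of genes near 1 TPM. A gene was called at an adjusted p of 0.05, and a second rule asked in addition for a change of at least 2-fold. The first rule called 3410 genes higher (25.3%) and 7003 genes lower (52.0%) after 24 h of THC. The second called 728 genes higher (5.41%) and 1481 genes lower (11%). The median change was -0.23. As deposited, the library medians differed by -0.21 between the groups. When each library was centred on its own median, which removes this difference, the calls became 4833 higher (35.9%) and 5167 lower (38.4%). The share of calls that were higher was thus 32.7% as deposited and 48.3% after centring, and it was 29.3% when TPM was recomputed without mitochondrially encoded genes. The 2-fold calls became 1074 higher (7.98%) and 865 lower (6.43%) after centring. Below, a count for a gene list stands beside these backgrounds, and the text says where centring turned its larger direction. A gene near silent in 1 group passed the TPM filter only through the other group. List counts that hold such genes are partly shaped by the filter.

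As deposited, rises were fewer than falls by both rules but reached further. After centring, 2-fold rises outnumbered 2-fold falls (1074 and 865). As deposited, changes of at least 4-fold numbered 163 higher and 103 lower. Changes of at least 8-fold numbered 41 higher and 6 lower, and changes of at least 16-fold 13 higher and 3 lower. The 2-fold calls were mostly lower below 100 TPM, as they were over all tested genes (728 higher and 1481 lower). They numbered 196 higher and 404 lower of 3017 genes between 1 and 5 TPM. Between 10 and 50 TPM they numbered 235 higher and 566 lower of 5421 genes, and between 100 and 500 TPM 105 and 116 of 1410. Among the 252 genes at 500 TPM or more, 128 were called higher and 83 lower, with a median of 0.18. The values of the 3 libraries did not overlap between the groups for 10653 genes (79.1%). Libraries of one group correlated across genes at 0.990 to 0.994, against 0.927 to 0.932 between groups (Pearson, log2 scale, a description over genes that are not independent). TPM keeps no sequencing depth, so the depth of each library is unknown.

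**Figure D1:**
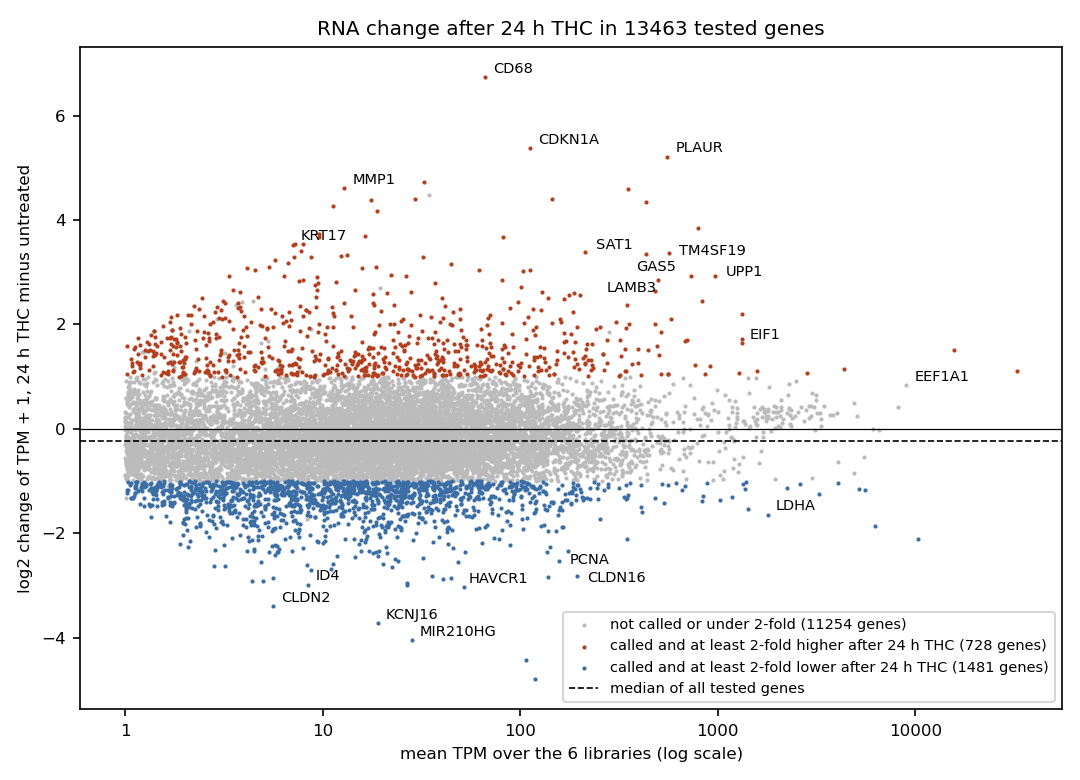
Log2 change of TPM + 1 (24 h THC minus untreated) against the mean TPM over the 6 libraries on a log scale, 1 point per tested gene. Red points are the 728 genes called at least 2-fold higher, blue points the 1481 called at least 2-fold lower, and the dashed line is the median of -0.23. Of the points, 41 lie at least 8-fold up and 6 at least 8-fold down.

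Markers of the labelled cell type were present in both groups. EPCAM, an epithelial adhesion molecule, averaged 406 ± 16.4 TPM after 24 h of THC and 369 ± 9.48 TPM in untreated cells (SD, n = 3 each, as for all errors below). PAX8, a transcription factor of Müllerian epithelium, averaged 406 ± 43.5 TPM with THC and 249 ± 11.1 TPM without. Such values are relative levels in bulk RNA, in which fewer cells of a type and less RNA per cell cannot be told apart. The hormone receptor PGR was at 0 in all 6 libraries, and so were the leukocyte marker PTPRC, the stromal genes DCN and LUM, and haemoglobin HBB. Other stromal genes were detected. ACTA2 averaged 3.21 TPM after 24 h of THC and 5.61 TPM in untreated cells, and COL1A1 0.712 TPM and 2.98 TPM. PDGFRB (0.1685 TPM with THC and 0.07858 TPM without) and COL3A1 (0.009455 TPM and 0.005235 TPM) stood at lower levels. The myeloid receptor CSF1R averaged 0.740 TPM after 24 h of THC and 0.0833 TPM in untreated cells.

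CD68 had the largest rise of all genes. This lysosomal glycoprotein, widely used to mark macrophages, had 127, 137 and 133 TPM after 24 h of THC, against 0.298, 0.258 and 0.190 TPM in untreated cells (log2 change 6.74, limma adjusted p = 2.23e-11). All 3 THC libraries lay far above all untreated ones. Other genes known from myeloid cells rose too. ITGAX, the integrin chain CD11c, averaged 12.9 ± 0.885 TPM after 24 h of THC and 0.525 ± 0.120 TPM in untreated cells. MARCO, a scavenger receptor, averaged 8.88 ± 0.847 TPM with THC and 0.196 ± 0.0426 TPM without. The leukocyte marker PTPRC stood at 0 in every library, and the monocyte marker CD14 averaged 0.0270 TPM with THC and 0.0309 TPM without.

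KRT17, MMP1, PI3 and LCN2 were next to silent in untreated cells and were among the largest rises. KRT17, a keratin of injured and stratified epithelium, had 14.4, 13.6 and 13.4 TPM after 24 h of THC, against 0.535, 0.190 and 0.154 TPM in untreated cells (3.53, adjusted p = 2.88e-09). MMP1, the interstitial collagenase, had 24.1, 26.2 and 26.8 TPM with THC, against 0.0850, 0.0853 and 0.114 TPM without (4.61, adjusted p = 6.81e-11). Neither gene reached 1 TPM in an untreated library. PI3, an elastase inhibitor of epithelial surfaces, had 15.9, 15.7 and 13.8 TPM after 24 h of THC, against 0.598, 0.657 and 0.305 TPM in untreated cells. LCN2, a lipocalin that binds iron-loaded siderophores, had 17.1, 19.4 and 19.5 TPM with THC, against 0.345, 0.546 and 0.762 TPM without. The groups of both genes were separated by more than 10 TPM.

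Other large rises began from higher levels. UPP1, the uridine phosphorylase that releases uracil from uridine, had 1846, 1666 and 1639 TPM after 24 h of THC, against 221, 229 and 227 TPM in untreated cells (2.92, SE 0.05, adjusted p = 6.42e-11). It was among the 10 genes that gained most TPM outside the lipid genes, stress genes and mitochondrially encoded genes. TM4SF19, a multi-pass membrane protein, had 1043, 1029 and 1026 TPM with THC, against 96.1, 104 and 98.3 TPM without (3.36, adjusted p = 8.94e-12). SAT1, the acetyltransferase that starts polyamine breakdown, had 737, 827 and 794 TPM after 24 h of THC, against 74.7, 75.5 and 77.1 TPM in untreated cells (3.36, adjusted p = 6.42e-11). The groups did not overlap in any of the 3 genes. SFN, the epithelial 14-3-3 protein sigma, averaged 1399 ± 117 TPM with THC and 255 ± 11.5 TPM without. SEMA7A, a membrane-anchored semaphorin, averaged 59.6 ± 5.82 TPM with THC and 5.21 ± 0.444 TPM without. NGFR, the low-affinity neurotrophin receptor gene, averaged 10.4 ± 0.986 TPM with THC and 0.323 ± 0.0186 TPM without. GEM, a small GTP-binding protein, averaged 11.1 ± 0.916 TPM with THC and 0.296 ± 0.0543 TPM without.

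A potassium channel gene, 2 claudin genes and a surface receptor gene were among the largest falls. KCNJ16, an inwardly rectifying potassium channel, had 2.16, 1.52 and 1.81 TPM after 24 h of THC, against 33.0, 39.3 and 36.3 TPM in untreated cells (-3.72, adjusted p = 8.64e-10). CLDN2, the claudin that makes tight junctions permeable to cations, had 0.146, 0.158 and 0.141 TPM with THC, against 11.1, 10.5 and 11.5 TPM without (-3.39, adjusted p = 4.59e-10). CLDN2 was thus below 0.5 TPM in every THC library and above 10 TPM in every untreated one. CLDN16, a claudin needed for magnesium reabsorption in the kidney, had 49.0, 45.1 and 48.3 TPM with THC, against 339, 343 and 335 TPM without (-2.81, adjusted p = 4.65e-11). HAVCR1, a surface receptor known as kidney injury molecule, had 33.8, 32.6 and 33.7 TPM after 24 h of THC, against 242, 248 and 241 TPM in untreated cells (-2.83, adjusted p = 6.85e-11). The groups did not overlap in any of these 4 genes.

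Other large falls also exceeded the spread between libraries. TINAG, a basement membrane glycoprotein of kidney tubules, averaged 5.35 ± 0.413 TPM after 24 h of THC and 48.0 ± 1.36 TPM in untreated cells. BICC1, an RNA-binding protein linked to cystic kidney, averaged 9.03 ± 0.630 TPM with THC and 72.4 ± 4.45 TPM without. TM4SF4, a membrane protein, averaged 5.25 ± 0.956 TPM with THC and 48.3 ± 0.695 TPM without. KANK2, an adaptor that links focal adhesions to the cell cortex, averaged 8.16 ± 0.549 TPM after 24 h of THC and 63.2 ± 2.41 TPM in untreated cells. MIR210HG, the host transcript of a hypoxia-induced microRNA, had the largest fall outside the lipid genes, stress genes and mitochondrially encoded genes (-4.05, SE 0.23). It had 1.61, 1.66 and 4.21 TPM after 24 h of THC, against 58.7, 54.3 and 48.7 TPM in untreated cells, and THC replicate 3 stood above the other THC libraries. POU5F1, a pluripotency factor with several near-identical copies in the genome, also fell (-2.68), but its reads cannot be assigned with certainty.

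Switch-like changes were rare. Outside the lipid and stress lists, 14 genes were below 0.5 TPM in each untreated library and at 5 TPM or more in each THC library, CD68, MMP1, GEM, NGFR and MARCO among them. The opposite held for 6 genes, including CLDN2, the Kelch protein gene KLHL14 (0.257 ± 0.0605 TPM with THC and 8.50 ± 0.426 TPM without) and GJB1, which encodes a gap junction connexin (0.289 ± 0.163 TPM with THC and 5.44 ± 0.219 TPM without).

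**Figure D2:**
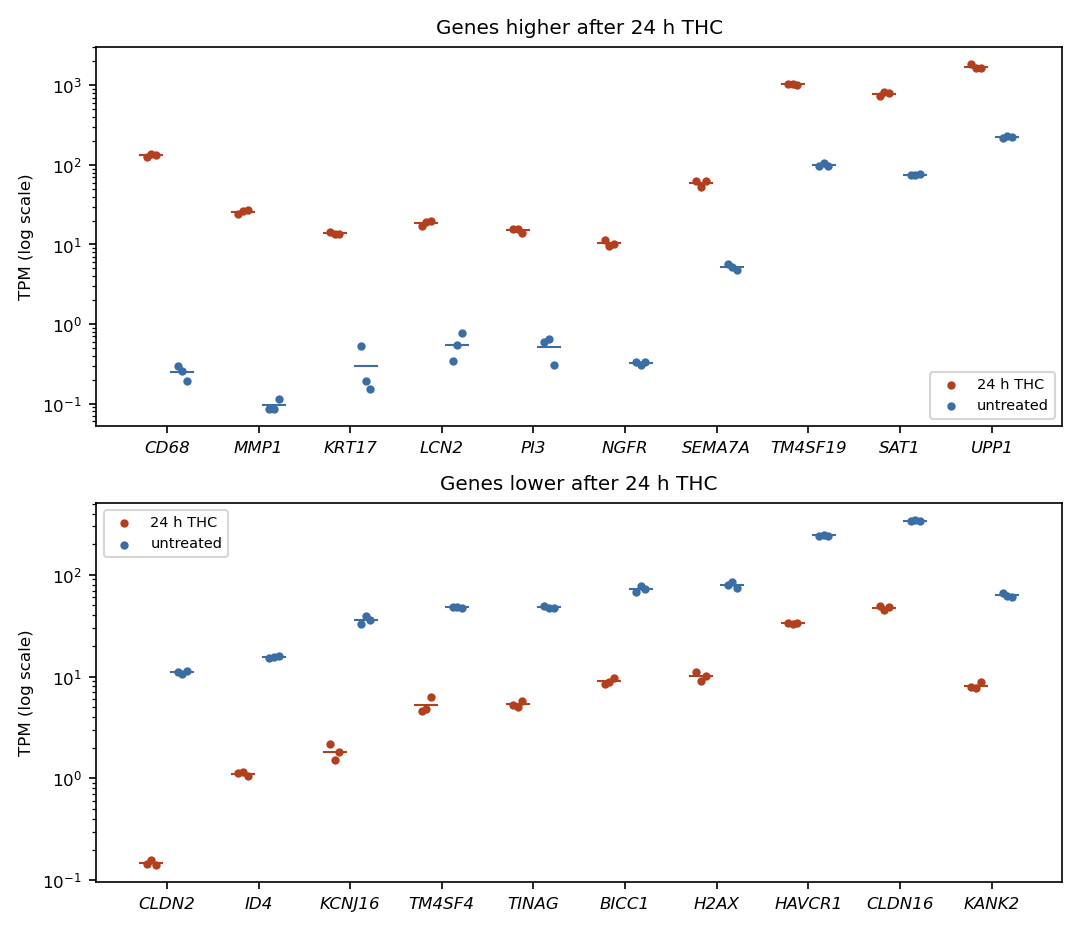
TPM of 20 genes on a log scale, with 24 h THC libraries left (red) and untreated libraries right (blue); each point is a library and each bar a mean of 3. In all 20 genes the 3 THC points lie on one side of the 3 untreated points.

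Genes that encode immediate early and related transcription factors were mostly higher. Of 12 tested AP-1 genes, whose products pair up on one DNA motif, 10 were called higher and 1 lower, with a median change of 1.20, and 7 were at least 2-fold higher. FOSB had 9.26, 8.31 and 8.64 TPM after 24 h of THC, against 0.800, 0.641 and 0.641 TPM in untreated cells (2.52, adjusted p = 1.06e-09). The small MAF protein gene MAFF had 71.2, 71.2 and 70.9 TPM with THC, against 16.5, 16.8 and 17.5 TPM without (2.01). JUNB varied more, with 54.4, 32.0 and 42.6 TPM with THC, against 12, 12.7 and 10.2 TPM without (1.77). Neither group overlapped the other in these 3 genes. FOS (1.49), FOSL1 (1.26) and JUN (0.87) were also called higher. FOSL2 was the member called lower (-0.26), a call lost after centring (-0.05).

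Of 11 other immediate early genes, 7 were called higher and 3 lower. EGR1, a zinc finger factor, had 407, 390.3 and 368 TPM after 24 h of THC, against 36.2, 37.3 and 34.5 TPM in untreated cells (3.39, adjusted p = 2.39e-10). NR4A1, an orphan nuclear receptor, changed by 2.40 and EGR2 by 1.74. CCN2, a matricellular protein and a classical YAP target, went the other way, with 0.824 ± 0.142 TPM after 24 h of THC and 5.44 ± 0.466 TPM in untreated cells (-1.82). MYC was not called, at 131 ± 6.06 TPM with THC and 129 ± 5.98 TPM without (change 0.02, SE 0.06), but was called higher after centring (0.22). Of 8 Krüppel-like factor genes, 5 were called higher and 0 lower, led by KLF4 (1.38) and KLF6 (1.19).

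Clock genes, whose feedback loops time transcription over the day, moved in both directions. Of 16 tested, 9 were called higher and 5 lower. The repressors NR1D1 (2.13), PER1 (2.06), BHLHE40 (1.66) and NFIL3 (1.45) were at least 2-fold higher. PER1 had 45.2, 32.2 and 45.4 TPM after 24 h of THC, against 8.93, 9.70 and 8.25 TPM in untreated cells. The repressors PER3 (-0.88) and CRY1 (-0.80) and the activator CLOCK (-0.62) were lower. The core activator BMAL1 was not called (6.26 ± 0.797 TPM with THC and 5.82 ± 0.333 TPM without), but was called higher after centring (0.30).

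All 5 tested SOX genes were called lower, SOX9, a factor of progenitor epithelium, among them (23.9 ± 0.798 TPM with THC and 38.4 ± 2.92 TPM without, -0.66). Of 17 HOX genes, which set positional identity, 3 were higher and 12 lower. HOXA2 changed by -1.54 (2.12 TPM with THC and 8.06 TPM without) and HOXB13 by -1.33 (0.275 TPM and 2.22 TPM). HOXB9, the member with the largest rise, changed by 1.17 from a low level (2.02 TPM with THC and 0.344 TPM without). Forkhead factor genes counted 7 higher and 10 lower of 18, near the shares of all tested genes. The large ZNF family counted 84 higher and 163 lower of 373, which turned to 132 and 113 after centring. ZNF431 (2.10), ZNF333 (2.01) and ZNF83 (1.79) rose most.

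The BMP and TGF-beta pathways signal through receptor serine kinases and SMAD proteins, and the ID genes are their classical targets. The ID proteins bind basic helix-loop-helix factors and keep them off DNA. All 4 ID genes were at least 2-fold lower. ID4 had 1.13, 1.16 and 1.06 TPM after 24 h of THC, against 15.3, 15.6 and 16.1 TPM in untreated cells (-2.98, adjusted p = 2.24e-10). ID3 had 16, 12 and 12.6 TPM with THC, against 80.4, 85.3 and 83.3 TPM without (-2.54, adjusted p = 2.6e-08). ID1 (-1.97) and ID2 (-1.13) moved less, and the groups overlapped for none of the 4. SMAD6, an inhibitory SMAD induced by BMP, averaged 3.03 ± 0.227 TPM after 24 h of THC and 20.7 ± 1.70 TPM in untreated cells (-2.43). The receptors TGFBR2 (-1.05), TGFBR1 (-0.97) and BMPR2 (-0.86) and the ligand BMP4 (-0.72) were lower as well. The ligand gene GDF15 rose, with 427, 278 and 332 TPM after 24 h of THC, against 56.7, 59.1 and 55.2 TPM in untreated cells, and so did INHBA, which encodes an activin chain (1.75). In all, 7 of 29 genes were called higher and 16 lower, near the shares of all tested genes. Calls of at least 2-fold numbered 3 higher and 7 lower (10.3% and 24.1%), larger shares than among all tested genes in both directions.

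Among Wnt pathway genes 4 of 29 were higher and 19 lower. The Frizzled receptors FZD1 (-1.83), FZD6 (-1.38) and FZD4 (-1.20) and the ligand WNT7A, which patterns the uterus (2.39 ± 0.316 TPM with THC and 10.3 ± 0.617 TPM without, -1.74), fell at least 2-fold. EGF family genes split. AREG, the ligand amphiregulin, had 216, 226 and 226 TPM after 24 h of THC, against 37.2, 33.6 and 35.1 TPM in untreated cells (2.62, adjusted p = 7.62e-11). HBEGF (1.76), EREG (1.05) and the feedback inhibitor ERRFI1 (1.08) were also at least 2-fold higher. The ligands NRG1 (-1.67) and TGFA (-1.04) and the receptors EGFR (-0.76), ERBB3 (-0.44) and ERBB2 (-0.31) were lower, and of the 11 tested members 4 were higher and 7 lower. The inhibitors of MAP kinase signalling of the DUSP and Sprouty families counted 7 higher and 11 lower, which turned to 8 and 5 after centring, with DUSP1 (2.41) and DUSP10 (2.16) higher and the ERK pathway inhibitor SPRY1 (-1.91) lower.

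Tested chemokine and interleukin genes were nearly all higher, but most listed ones did not pass the TPM filter. Of 87 listed chemokine, interleukin and receptor genes 15 were tested. Of these, 14 were called higher and 1 lower (CXCL16, -0.20, a call lost after centring), with a median of 0.93. A member near silent in untreated cells could be tested only if it rose, so the filter favours rises in this count. IL32 had 21.6, 20.1 and 22.1 TPM after 24 h of THC, against 2.17, 1.94 and 2.38 TPM in untreated cells (2.82, adjusted p = 5.25e-10). The inflammasome product gene IL18 changed by 2.03 and the myeloid growth factor gene CSF2 by 2.05. The TNF superfamily counted 6 higher and 8 lower, or 8 and 6 after centring. TNFSF15, a ligand of death receptor DR3, rose (37.2 ± 2.14 TPM with THC and 5.28 ± 0.435 TPM without, 2.60). TNFSF10, the ligand TRAIL, fell (-1.66) while its receptor gene TNFRSF10B rose (1.39). FAS, another death receptor, fell (-1.01). Of 14 BCL2 family genes 6 were higher and 6 lower, or 8 and 5 after centring. The higher ones included the pro-apoptotic PMAIP1 (1.5) and BIK (1.36) and the anti-apoptotic MCL1 (1.26), and the lower ones BAX (-0.67) and BAD (-0.89).

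The urokinase system cleaves plasminogen at the cell surface, and its receptor had the third largest rise of the ranked genes. PLAUR, the urokinase receptor, had 1145, 1036 and 1049.9 TPM after 24 h of THC, against 28.9, 27.1 and 28.1 TPM in untreated cells (5.21, adjusted p = 3.12e-12). Its ligand PLAU had 766, 771 and 770.0 TPM with THC, against 186, 193 and 192 TPM without (2.01, adjusted p = 5.74e-11). Receptor and protease genes were thus both raised with no overlap between groups. The tissue-type activator PLAT was lower (-0.83). The summed level of all 37 listed genes of the urokinase system and serpins was 2372 ± 49.4 TPM after 24 h of THC and 559 ± 8.05 TPM in untreated cells. Of the 15 tested, however, 7 were higher and 7 lower (7 and 5 after centring).

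Laminins are the main glycoproteins of basement membranes, and of 9 tested chain genes 5 were called higher and 2 lower, with a median of 0.38. LAMB3 had 637, 529 and 586 TPM after 24 h of THC, against 112, 116 and 107 TPM in untreated cells (2.37, adjusted p = 8.06e-10). The groups did not overlap. LAMA3 changed by 0.95 (SE 0.05). In contrast LAMA5 (-1.0) and LAMC1 (-0.62), chains of the common epithelial laminin, and the basement membrane collagens COL4A1 (-0.86) and COL4A2 (-0.70) were lower.

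Integrins, the receptors of these matrices, counted 4 higher and 8 lower of 14, shares near those of all tested genes, and 6 higher and 7 lower after centring. Their calls of at least 2-fold numbered 2 higher and 5 lower (14.3% and 35.7%), larger shares than among all tested genes in both directions. ITGAV (-1.34) and 3 of its partner chains, ITGB3 (-1.84), ITGB6 (-1.41) and ITGB8 (-1.47), were at least 2-fold lower. ITGB3, a chain long studied in receptive endometrium, had 38.2, 37.5 and 38.8 TPM after 24 h of THC, against 137, 147 and 135 TPM in untreated cells (adjusted p = 5.25e-10). The collagen receptor chain ITGA2 rose (1.52). Of 10 keratin genes 7, including KRT15 (1.48), KRT19 (1.04) and KRT7 (0.97), were called higher and 2 lower. At cell junctions CDH16 (-2.05) and CDH6 (-1.69), cadherins of kidney epithelium, fell with CLDN2 and CLDN16, whereas CLDN12 (1.29), CLDN4 (0.55) and CDH1 (0.37) rose. Focal adhesion genes PXN (1.27) and ZYX (1.18) and the tropomyosin gene TPM4 (1.21) rose, while the actin regulators as a list counted 16 higher and 20 lower of 45, or 21 and 14 after centring.

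**Figure D3:**
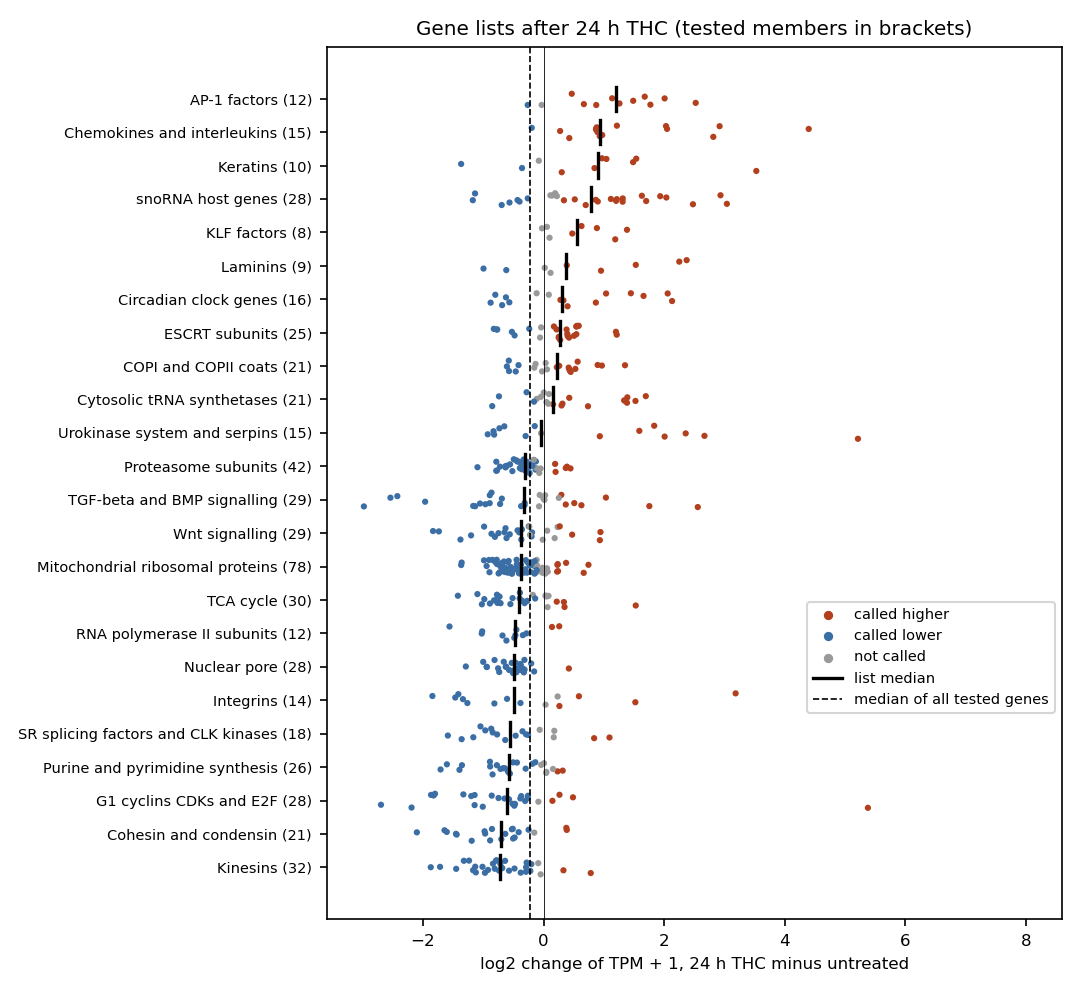
Log2 change of TPM + 1 (24 h THC minus untreated) of every tested member of 24 gene lists, 1 point per gene, red if called higher, blue if called lower and grey if not called. Black bars are list medians and the dashed line the median of all tested genes at -0.23; AP-1 genes have the highest list median drawn, at 1.20, and kinesins the lowest, at -0.73.

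Host genes of small nucleolar RNAs (snoRNAs) were mostly higher. These genes carry snoRNAs in their introns, and many of their spliced transcripts start with the terminal oligopyrimidine tract of ribosomal protein genes and are degraded when translated. Of 28 tested, 17 were called higher and 7 lower (12 and 2 at least 2-fold), with a median of 0.78. The summed level of all 32 listed host genes was 4912 ± 108 TPM after 24 h of THC and 1689.6 ± 48.2 TPM in untreated cells. GAS5 had 1245, 1360.4 and 1262 TPM with THC, against 161, 165 and 177 TPM without (2.93, adjusted p = 2.24e-10). EPB41L4A-AS1 had 109.8, 109 and 114 TPM with THC, against 12.8, 13 and 12 TPM without (3.04). The groups stood apart in both genes. ZFAS1 (1.93), SNHG7 (2.04) and SNHG12 (1.70) followed, and SNHG9 fell (-1.17). Of 31 annotated snoRNAs tested, 9 were higher and 1 lower, but reads of a snoRNA and of its host cannot be told apart with certainty.

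Splicing factor and nuclear pore genes were mostly lower. Of 18 SR proteins and the CLK kinases that phosphorylate them, 2 were higher and 13 lower. SRSF3 had 199, 213 and 205 TPM after 24 h of THC, against 602, 632 and 626 TPM in untreated cells (-1.59, adjusted p = 1.19e-09). SRSF2 had 108, 109 and 102 TPM with THC, against 267, 275 and 282 TPM without (-1.36). The members called higher were the kinases CLK3 (1.09) and CLK1 (0.84). Among hnRNP genes 1 of 22 was higher and 17 lower. HNRNPA2B1 averaged 918 ± 58.2 TPM with THC and 1867 ± 90.0 TPM without. Nuclear pore genes counted 1 higher and 27 lower of 28, with NUP210 at -1.29. The 12 RNA polymerase II subunit genes counted 2 higher and 10 lower, with POLR2L at -1.56. By contrast ZFP36, whose product marks AU-rich mRNAs for decay, rose, with 157, 126 and 145 TPM after 24 h of THC, against 19.2, 20.1 and 17.6 TPM in untreated cells (2.84).

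Genes of cytosolic and mitochondrial translation differed. Of 44 initiation factor genes 22 were higher and 15 lower. EIF1, which helps choose the start codon, had 2045, 1944 and 2019 TPM after 24 h of THC, against 617, 685 and 612 TPM in untreated cells (1.65, adjusted p = 1.19e-09). The elongation factor gene EEF2 had 1804, 1655 and 1760.5 TPM with THC, against 818, 900.0 and 767 TPM without (1.07). In both genes every THC library lay above every untreated one. Of 21 cytosolic tRNA synthetase genes 11 were higher and 4 lower, and the 6 that were at least 2-fold higher charged serine (SARS1, 1.70), glycine (GARS1, 1.52), alanine (AARS1, 1.39), cysteine (CARS1, 1.38), tyrosine (YARS1, 1.35) and tryptophan (WARS1, 1.34). Of 17 mitochondrial synthetase genes 3 were higher and 11 lower, beside 25.3% higher and 52.0% lower among all tested genes. Mitochondrial ribosomal protein genes counted 7 higher and 59 lower of 78, led by MRPL51 (116 ± 1.64 TPM with THC and 299.8 ± 4.79 TPM without, -1.37). All of these lists kept their larger direction after centring.

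In protein turnover and traffic, proteasome subunit genes counted 5 higher and 33 lower of 42, and the 8 genes of the folding chaperonin TRiC counted 0 higher and 7 lower. The endosomal sorting (ESCRT) genes ran the other way, with 17 higher and 6 lower of 25. HGS, which gathers ubiquitin-tagged receptors on endosomes, had 302, 349 and 322 TPM after 24 h of THC, against 140.4, 139 and 137 TPM in untreated cells (1.21, adjusted p = 1.22e-08). CHMP1B followed at 1.20. Coat genes of the secretory pathway counted 11 higher and 5 lower of 21, with SEC24D at 1.35 and COPG1 at 0.97.

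Genes of the cell division cycle were mostly lower, with the CDK inhibitor gene CDKN1A as a large exception (219 ± 7.30 TPM after 24 h of THC and 4.28 ± 0.203 TPM in untreated cells). Of 28 G1 cyclin, CDK and E2F genes 4 were higher and 23 lower (11 at least 2-fold lower). CDKN2C, another CDK inhibitor, fell to 1.97, 1.61 and 1.25 TPM after 24 h of THC, against 16, 15.8 and 15.6 TPM in untreated cells (-2.70). The E2F partner gene TFDP1 averaged 54.4 ± 3.01 TPM with THC and 201 ± 3.53 TPM without (-1.87). The 2 CDK inhibitor genes thus moved in opposite directions. Kinesin motor genes counted 2 higher and 28 lower of 32, with the spindle motor KIF11 at -1.87, and cohesin and condensin genes counted 2 higher and 18 lower of 21, with the cohesin acetyltransferase ESCO2 at -2.10. PCNA, the replication clamp, had 43.6, 45.6 and 46.6 TPM after 24 h of THC, against 279.7, 268 and 257 TPM in untreated cells (-2.54). H2AX, the histone phosphorylated at DNA breaks, had 11.2, 9.14 and 10.2 TPM with THC, against 79.1, 84.8 and 74.4 TPM without (-2.85). The groups overlapped in neither gene. Of 28 recombination and mismatch repair genes 3 were higher and 22 lower, and of 15 Fanconi anaemia genes 0 were higher and 13 lower.

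Chromatin regulators held individual large changes in both directions. UHRF1, which guides maintenance methylation of DNA, had 5.45, 4.88 and 5.13 TPM after 24 h of THC, against 31.5, 31.2 and 30.0 TPM in untreated cells (-2.38). HDAC1, a class I histone deacetylase, had 74.3, 76.5 and 75 TPM with THC, against 232, 248 and 232 TPM without (-1.64). HDAC5, a class II deacetylase, had 66.1, 53.4 and 55.4 TPM with THC, against 13.1, 17.3 and 16.1 TPM without (1.85). The 2 genes thus moved in opposite directions. The whole family of deacetylases and sirtuins counted 6 higher and 9 lower, which turned to 8 and 7 after centring. Within Polycomb, the methyltransferase gene EZH1 rose (1.35) and the shared subunit SUZ12 fell (-1.08). Of 26 Polycomb genes 5 were higher and 13 lower, near the shares of all tested genes (25.3% and 52.0%). Of 10 lysine acetyltransferase genes 0 were higher and 9 lower, led by HAT1 (-1.13).

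Serine and one-carbon genes counted 8 higher and 11 lower, which turned to 10 and 9 after centring. MTHFD2, a mitochondrial enzyme of folate metabolism, had 377, 386 and 389 TPM with THC, against 99.6, 101 and 102 TPM without (1.92, adjusted p = 2.83e-10). The groups did not overlap. The cytosolic SHMT1 fell (-1.84). Thymidylate genes TYMS (-1.71) and DUT (-1.60) fell with 19 of 26 purine and pyrimidine synthesis genes, 2 being higher. TCA cycle genes counted 4 higher and 20 lower of 30, among them SDHA (-1.42), and the member furthest the other way was PCK2, mitochondrial PEP carboxykinase (1.53). Metallothionein MT2A, a zinc buffer, had 2677, 1752 and 2150.0 TPM after 24 h of THC, against 449, 446 and 508 TPM in untreated cells (2.21), and MT1X changed by 1.95.

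The TPM total is the same in every library, and its division among RNA classes changed. Cytosolic ribosomal protein mRNAs held 17.6% ± 0.180 of the total after 24 h of THC and 14.5% ± 0.348 in untreated cells. The 2 ferritin chains, which store iron, held 6.80% ± 0.198 with THC and 2.89% ± 0.100 without. Mitochondrially encoded RNA held 3.37% ± 0.0614 with THC and 7.42% ± 0.365 without. In each of these classes the 3 THC libraries lay apart from the 3 untreated ones. The mitochondrially encoded RNAs did not move as one, for the ribosomal RNA MT-RNR1 had 2036, 2054 and 1982 TPM after 24 h of THC, against 616, 573 and 652 TPM in untreated cells (1.72). MT-ND6, the one mRNA of the light strand, had 6.75, 10.2 and 5.67 TPM with THC, against 233, 240.1 and 216 TPM without (-4.79). The groups lay apart in opposite directions in these RNAs. All remaining protein-coding genes together held 68.9% ± 0.139 after 24 h of THC and 72.2% ± 0.705 in untreated cells. Single genes were ranked outside these classes and outside the lipid and stress lists. Among them EEF1A1, the tRNA-delivering elongation factor, gained most (11482 ± 743 TPM with THC and 6424 ± 294 TPM without). In the same set PPIA, the cyclophilin A gene (4453 ± 201 TPM with THC and 6475 ± 198 TPM without), and TUBA1B, an alpha tubulin (2063 ± 43.5 TPM with THC and 3957 ± 107 TPM without), lost most. The 10 most abundant genes of a library held 12% to 12.5% of its total after 24 h of THC and 9.33% to 9.96% in untreated cells, and genes at 1 TPM or more numbered 13044 to 13102 with THC and 13549 to 13611 without.

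**Figure D4:**
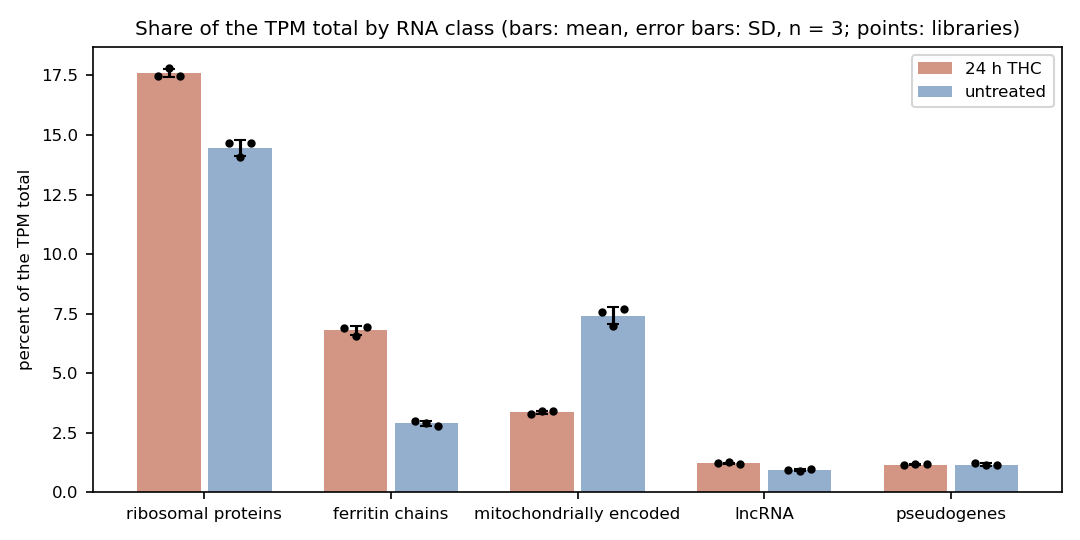
Share of the TPM total (percent) held by 5 RNA classes, with 24 h THC left (red) and untreated right (blue); bars are means, error bars SDs of 3 libraries and points the libraries. Ribosomal proteins and ferritin stood higher with THC (17.6% and 6.80%, against 14.5% and 2.89%), and mitochondrially encoded RNA lower (3.37%, against 7.42%).

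Along the chromosomes, tested genes matched to RefSeq positions (12606 of 13463, 93.6%) formed 13 runs of at least 3 neighbours that all rose 2-fold (41 genes) and 24 runs that all fell 2-fold (77 genes). Genes that were not tested can lie between the neighbours of a run. KRT15, KRT19, KRT17 and EIF1, with starts within 175.1 kb on chromosome 17, followed each other among tested genes and all rose, by 1.04 to 3.53. On chromosome 20 the protease inhibitors PI3 and SLPI (323 ± 18.8 TPM after 24 h of THC and 52.7 ± 3.53 TPM in untreated cells) and the proteoglycan gene SDC4 (401 ± 1.81 TPM with THC and 103 ± 4.58 TPM without) formed another run. TMEM268 (1.19), TNFSF15 and TNC, the matrix glycoprotein tenascin C (189.7 ± 0.671 TPM with THC and 63.6 ± 2.38 TPM without), were neighbours on chromosome 9. The longest run of falls joined LINC00920, TK2, CKLF, CKLF-CMTM1 and CMTM1 on chromosome 16, of which CKLF-CMTM1 overlaps both of the genes it is named for. Runs of overlapping or near-identical genes, such as CGB2, CGB5 and CGB8 on chromosome 19, do not count as independent neighbours, since their reads can be split between copies.

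Promoters of the changed genes were compared in RefSeq windows of 300 bases, 250 before and 50 after the annotated start (GRCh38.p14). A window was at hand for 448 of 552 protein-coding genes that were at least 2-fold higher (81.2%), 1004 of 1211 that were at least 2-fold lower (82.9%) and 9432 of 11325 tested (83.3%). The TATA box (TATAAA, either strand) was present in 14.7% of the windows of higher genes, 5.18% of those of lower genes and 5.07% of those of all tested genes, against 11.9% of all 27305 promoters in the table. The AP-1 motif (TGANTCA, N being any base, either strand) was present in 8.48% of higher, 2.69% of lower and 4.16% of all tested genes, against 7.76% of all promoters. Among genes at least 4-fold higher the shares were 24.8% for the TATA box (25 of 101 windows) and 18.8% for AP-1 (19 of 101), and among genes at least 4-fold lower 10.5% for each motif (6 of 57), which is also above the share in all tested genes. The ETS motif (CCGGAAG) was in 13.2% of higher, 12.7% of lower and 20.9% of all tested genes, and the CHR motif (TTTGAA) in 8.93%, 12.8% and 9.24%. Median GC content was 64.0%, 66.0% and 65.3% in the same 3 sets. These are descriptions of letters with no test, and a match is not a binding site.

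The 5 windows below are shown because they carry these letters in genes described above, the first 3 for AP-1 and the last 2 for TATA. They were chosen after their values were seen. Only the 250 bases before the start are printed, 5′ to 3′ on the gene's own strand, with the motif in capitals. They lie at chr19:43670170-43670419 (minus strand, PLAUR), chr17:7579388-7579637 (plus strand, CD68), chr9:128149203-128149452 (plus strand, LCN2), chr4:74444886-74445135 (plus strand, AREG) and chr5:172771196-172771445 (minus strand, DUSP1) of GRCh38.
PLAUR: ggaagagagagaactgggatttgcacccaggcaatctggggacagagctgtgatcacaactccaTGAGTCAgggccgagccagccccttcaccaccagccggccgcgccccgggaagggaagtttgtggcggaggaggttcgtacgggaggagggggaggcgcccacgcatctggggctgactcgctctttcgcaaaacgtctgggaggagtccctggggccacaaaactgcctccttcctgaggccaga
CD68: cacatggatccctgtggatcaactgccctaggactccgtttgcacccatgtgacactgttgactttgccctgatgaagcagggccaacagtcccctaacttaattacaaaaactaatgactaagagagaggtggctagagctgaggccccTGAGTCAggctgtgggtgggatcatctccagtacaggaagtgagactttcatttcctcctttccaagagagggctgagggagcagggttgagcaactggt
LCN2: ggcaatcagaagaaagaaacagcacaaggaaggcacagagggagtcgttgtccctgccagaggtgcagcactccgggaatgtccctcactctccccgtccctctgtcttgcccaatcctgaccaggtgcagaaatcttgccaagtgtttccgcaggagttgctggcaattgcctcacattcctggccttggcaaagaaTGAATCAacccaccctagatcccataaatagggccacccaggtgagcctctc
AREG: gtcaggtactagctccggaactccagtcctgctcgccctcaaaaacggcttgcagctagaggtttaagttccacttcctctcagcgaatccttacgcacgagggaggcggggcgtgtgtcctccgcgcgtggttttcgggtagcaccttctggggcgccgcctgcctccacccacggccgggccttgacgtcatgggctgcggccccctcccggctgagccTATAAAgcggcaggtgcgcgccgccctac
DUSP1: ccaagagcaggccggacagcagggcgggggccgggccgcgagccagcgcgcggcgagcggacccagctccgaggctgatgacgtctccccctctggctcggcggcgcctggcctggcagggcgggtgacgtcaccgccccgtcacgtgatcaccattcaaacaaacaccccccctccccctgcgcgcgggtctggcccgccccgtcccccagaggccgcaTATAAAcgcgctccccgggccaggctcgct

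**Figure D5:**
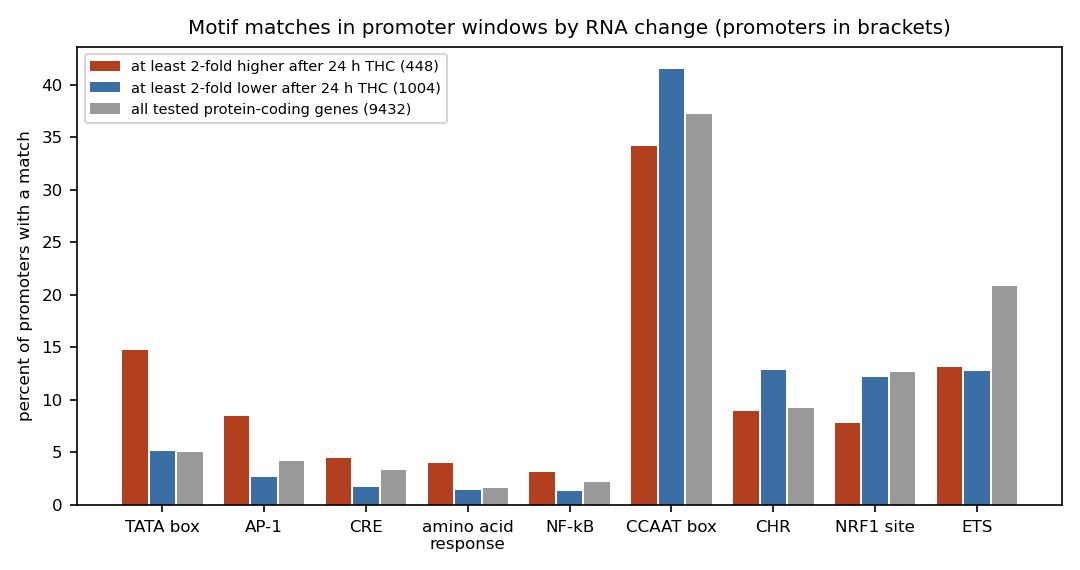
Percent of promoter windows that hold each of 9 motifs on either strand, for protein-coding genes at least 2-fold higher after 24 h of THC (red), at least 2-fold lower (blue) and all tested (grey). The TATA box (14.7%, 5.18% and 5.07%) and AP-1 (8.48%, 2.69% and 4.16%) are most frequent among the higher genes.

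Peak lists of ATAC-seq, which marks accessible DNA, and of CUT&RUN for H3K4me3, a histone mark of active promoters, were set beside the RNA. Within 1000 bases of a start, H3K4me3 peaks were found in all 3 libraries with THC, for a time the labels do not give, for 86.8% of the 448 genes that were at least 2-fold higher, 94.5% of the 1004 lower genes and 95.1% of the 9432 tested genes. In all 3 untreated libraries they were found for 85.7%, 94.4% and 94.8% of these sets. ATAC peaks were found in all 3 of the 24 h THC libraries for 83.0%, 90.3% and 92.1% of these sets, and in all 3 untreated libraries for 85.9%, 93.3% and 94.7%. Shares of ATAC peaks move with the length of the lists, which held 58031 to 79207 peaks after 24 h of THC and 65867 to 152359 in untreated cells. The higher set also holds genes that passed the TPM filter only through the THC libraries. Examples are AGXT (3.43 TPM with THC and 0.00358 TPM without) and MMP10 (2.33 TPM and 0 TPM). Its lower shares may follow in part from how the set was formed, which was not tested.

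Starts that switched were few. Among all 9432 genes, H3K4me3 was in all 3 THC and no untreated library for 4, and the reverse for none. The one 2-fold higher gene among the 4 was LCP1, an actin bundler best known from leukocytes, with 166, 185 and 178 TPM after 24 h of THC, against 24.5, 28.3 and 24.7 TPM in untreated cells (2.72). No ATAC peak was listed at the LCP1 start in any 24 h THC or untreated library, although its RNA was present in both groups. An ATAC peak was in all 3 of the 24 h THC libraries and no untreated one for none of the 9432 starts, and the reverse held for 18, of which 3 were 2-fold higher genes and 2 lower. Of the 25 largest rises 15 had a RefSeq start at hand, and H3K4me3 was listed in every library of both groups at 10 of them and in none at 3. Of the 25 largest falls 17 had one, with H3K4me3 in every library at 16 and in none at 1. ATAC peaks were listed in every library at 11 of the rises and at 17 of the falls. At the starts of CD68, PLAUR, EGR1, TM4SF19, SAT1 and SEMA7A both marks were listed in every library of both groups, and likewise at those of ID4, HAVCR1, CLDN16, KCNJ16 and TINAG. LCN2, by contrast, had H3K4me3 in 3 libraries with THC and 2 untreated ones, and an ATAC peak in 0 libraries with 24 h of THC and 1 untreated one. CLDN2 had ATAC peaks in all libraries and H3K4me3 in none. Of the 448 higher genes 51 had no H3K4me3 peak at the start in any library, TNFSF15, the neuronal microtubule gene MAP2 (31.3 ± 2.30 TPM with THC and 7.13 ± 0.386 TPM without) and MARCO among them. The same held for 41 of the 1004 lower genes. Among all 9432 tested genes, 393 had no peak in any THC library and 414 none in any untreated library. The lower genes (43 and 43) stood near these shares and the higher genes (52 and 56) above them. Starts other than those listed in RefSeq were not examined.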

How the data were processed

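RNA was measured in 9 libraries of HEC-1A cells, 3 with 24 h of THC, 3 untreated and 3 with 72 h of THC. The authors deposited 1 table of TPM, and the submitters' processing notes name Salmon, Trim Galore and GRCh38 with no role or order. TPM sums to the same total in each library and keeps no depth, so no count test and no counting interval were possible. Genes with a mean of at least 1 TPM over the 6 libraries compared were fitted as log2(TPM + 1) with limma 3.58.1 (R 4.3.3, trended prior), with all 9 libraries sharing 1 estimate of spread, and p-values were adjusted by Benjamini-Hochberg over 13463 genes. The fit was tested on simulated data.

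Genes were named by rank of change, rank within fixed lists, large gain or loss of TPM, near silence in 1 group, or place in a run of neighbours. Genes named beyond that rule, to complete a family or a marker set, were chosen after their values were seen. Members and lists were chosen with earlier results of these data known, and lists defined by name patterns were limited to protein-coding members after their values were seen.

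The deposited ATAC-seq and H3K4me3 peak lists hold a −log10 q-value per peak, in the layout that MACS writes (MACS2 2.2.7.1, MACS3 and GRCh38 are named in the submitters' processing notes), and were called per library. Peaks were used as listed, and a start counted as marked when a peak lay within 1000 bases. Promoter windows came from RefSeq tables of GRCh38.p14. Genes with no RefSeq window were left out of the promoter comparison. The alternatives tried were other filters, another pseudocount, median centring, TPM without mitochondrially encoded genes, a fit on 6 libraries, a replicate block and leaving out each library. Some genes are not reported here.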

Additional observations from a re-analysis of the deposited data

How the results depend on the processing

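TPM is relative and without depth, so all directions depend on how libraries are scaled. Of 181 genes named with values in the text, 162 had a value under all 14 alternatives, and 157 of these kept their direction and their side of the threshold in each. The other 19 genes dropped out of some alternatives, through the 5 TPM filter or as mitochondrially encoded genes, and kept both in the rest. CXCL16 changed sign after centring (0.0121, adjusted p = 0.904), EPCAM lost its call without mitochondrially encoded genes, FOSL2 lost it after centring and MYC (0.22) and BMAL1 (0.30) gained one after centring. CXCL16 and EPCAM also lost their calls without some single libraries, CXCL16 at -0.22 to -0.14 and EPCAM at 0.12 to 0.13. The larger direction of 15 of 82 lists turned after centring and of 0 without mitochondrially encoded genes; the cause was not tested.

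The 3410 higher and 7003 lower calls became 4833 and 5167 after centring, and the 1481 genes at least 2-fold lower became 865. With a pseudocount of 0.1 the 2-fold calls were 901 higher and 2050 lower. Leaving out 1 library at a time gave 3185 to 3357 higher, 6601 to 6846 lower, 721 to 748 at least 2-fold higher and 1408 to 1533 at least 2-fold lower. Replicate numbers in the labels were shared between groups, but deviations of same-numbered libraries correlated at -0.129, -0.00526 and -0.0735, so the numbers were not taken to pair the libraries. The replicate block gave 3416 higher and 7028 lower calls and changed no call of a named gene. With TPM recomputed without mitochondrially encoded genes, ferritin held 7.04% with THC and 3.12% without, ribosomal proteins 18.2% with THC and 15.6% without, other protein-coding genes 71.3% with THC and 78.0% without, lncRNAs 1.27% with THC and 1.01% without, pseudogenes 1.21% with THC and 1.26% without, and RNAs of other or no class 0.937% in untreated cells. With a window of 500 bases, 94.5% of tested starts had H3K4me3 in all untreated libraries.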
